A study of Rattus norvegicus with 22 samples.

Results

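The nuclear receptors of the liver were taken as 38 named genes of this family of transcription factors, and a gene counted as measured when the array held a non-control probe under its symbol. Such a probe was found for 37 of the 38 genes, among 26276 gene names on the array. Rarb, a retinoic acid receptor, was not analysed here. The 37 genes had 50 probes, and for the 12 genes with more than 1 probe the one with the highest mean Cy5 signal stood for the gene.

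Nuclear receptors bind small fat-soluble molecules such as fatty acids, retinoids, oxysterols, steroids and thyroid hormone, and turn genes on or off by binding DNA, many of them as a pair with a retinoid X receptor. In hepatocytes they set the pace of fatty acid oxidation, bile acid and cholesterol handling, glucose output and the clearance of foreign compounds. Those without a known natural ligand are called orphan receptors.

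The livers came from male Sprague-Dawley rats that were 8 weeks old when the feeding began and ate a semi-synthetic diet throughout. Control rats (CD) had mostly lard as the fat of that diet, while rats on BASE-diet (BD) had 6% salmon fat and more rapeseed oil in place of most of the lard. BASE-diet also held 8% linden flower extract, 8% pumpkin puree and 1% of 2 probiotic bacterial strains. Livers were profiled after 3 months (CD 3, n = 5; BD 3, n = 5) and after 14 months (CD 14, n = 6; BD 14, n = 6), 1 rat per array, so the older groups differ from the younger ones both in age and in time on the diet. Every array compared the Cy5-labelled RNA of its rat with the same Cy3-labelled reference, liver RNA of healthy 10-week-old rats, and values are log2 ratios to that reference, where 0 is the level of the reference for the same probe.

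The tissue held the markers of hepatocytes: 8 of 8 (the brightest being Ttr) were well above background on all 22 arrays, meaning that at least 0.5 of a probe's spots carried the scanner's flag for signal over local background. The mean log2 ratio of these 8 genes was −0.53 ± 0.82 (SD, n = 5) in CD 3, −0.15 ± 0.30 (n = 5) in BD 3, −0.29 ± 0.37 (n = 6) in CD 14 and −0.13 ± 0.43 (n = 6) in BD 14. In CD 3 the single rats had −0.28, 0.29, −0.61, −1.88 and −0.19, so rat 4, the array with the fewest spots above background, pulls that mean down. Other cells of the organ were present too. Of the Kupffer cell markers 4 of 6 were above background on all arrays (brightest Clec4f), of the stellate cell markers 7 of 9 (Col3a1), of the sinusoidal endothelial markers 5 of 6 (Kdr) and of the red cell markers 4 of 5 (Hba-a2). The count was 2 of 8 for lymphocytes (Cd3d), and none of the 6 bile duct markers reached all arrays (Epcam). For cells that a liver sample should mostly lack it was 1 of 5 for fat cells (Cidec), 1 of 6 for muscle (Ckm) and 0 of 6 for pancreas (Ins2). In such bulk tissue fewer cells of a type and less RNA per cell cannot be told apart.

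There were 5 slides, called A to E here, and no 2 of them were scanned on the same day. Slide A carried all 6 BD 14 rats and 2 CD 14 rats, slide B 3 BD 3 and 3 CD 14 rats, slide C 2 BD 3 rats and 1 CD 3 rat, slide D 3 CD 3 rats, and slide E 1 CD 3 and 1 CD 14 rat. Diet could therefore be compared within slide C at 3 months and within slide A at 14 months. Time on control diet could be compared within slide E, and time on BASE-diet within no slide. The 1 control rat on slide C was CD 3 rat 1. Slide D held CD 3 rats only, so in fits with the slide as a block they do not bear on any difference. With that block CD 3 is represented by rats 1 and 5. As slide A held all BD 14 rats, the 14-month diet difference with the block equals that within slide A by construction. It rests on the 2 CD 14 rats there. In the Cy5 channel, spots well above background made up 88.8% to 93.6% on 4 arrays (CD 3 rat 1, BD 3 rat 5, CD 14 rats 1 and 3) and 52.4% to 77.0% of those on the other 18, the lowest being CD 3 rat 4. In the Cy3 channel of the reference the share was 52.4% to 60.3% on slide A, which held all BD 14 rats. On the other slides it was 59.3% to 83.4%. The reference was thus weaker on most arrays of slide A for probes in general.

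Most of the receptors gave a signal in this tissue. Of the 37, 24 were well above background on all 22 arrays: Ppara, Ppard, Pparg, Rxra, Rxrb, Rxrg, Rara, Rarg, Nr1h2, Nr1h3, Nr1i2, Nr1i3, Rora, Hnf4a, Nr2c1, Nr2f2, Nr2f6, Esrra, Nr3c1, Nr3c2, Nr4a1, Nr4a2, Nr5a1 and Nr5a2. A receptor was tested when at least 1 group had it above background on all its arrays, and 6 others met this, namely Thra (21 arrays), Hnf4g (20), Nr2c2 (20), Vdr (19), Thrb (18) and Esr1 (13). Esr1 met it only through BD 14. The remaining 7 did not: Nr2f1 (14 arrays), Nr6a1 (7), Esr2 (6), Nr4a3 (5), Esrrb (4), Esrrg (4) and Pgr (4). Esrrg and Pgr, an orphan relative of the estrogen receptors and the progesterone receptor, were above background on the 4 arrays with the largest share of bright spots and on no others, and 3 of the 4 arrays for Esrrb were among them. No member was below background everywhere. The place of Nr5a1 among the 24 rests on its brighter probe. A second Nr5a1 probe was above background on 6 arrays, 0 of 6 in BD 14, and was not tested. The tests that follow therefore cover 30 members.

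By limma, with p-values adjusted by the Benjamini-Hochberg method over the 19434 probes tested, 0 of the 30 members differed among the 4 groups (F test, background 0.0257% of all probes), and 2 did at an unadjusted p under 0.05, Nr1i3 and Thrb (background 10.5%). The F test of the methods, without moderation, called 0 members as well (background 0.00515%) and 3 without adjustment, the third being Nr2f6 (background 10.7%). In the single comparisons the count of members called was again 0 throughout. The share of all probes called was 0.0% for BD 3 against CD 3, 0.0% for BD 14 against CD 14, 0.0% for CD 14 against CD 3, 0.0% for BD 14 against BD 3, 0.00515% for diet over both times, 0.221% for time over both diets and 0.0% for the diet by time interaction. None of the statements that follow rests on an adjusted p below 0.05 for a receptor.

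At an unadjusted p under 0.05 the members numbered 0 of 30 for BD 3 against CD 3 (background 7.11%) and 3 for BD 14 against CD 14 (Thrb, Esr1 and Hnf4a, background 4.6%). For time the numbers were 2 in CD 14 against CD 3 (Nr1i3 and Nr2f6, background 10.1%) and 3 in BD 14 against BD 3 (Thrb, Nr1i3 and Esr1, background 7.44%). Diet over both times gave 4 (Nr4a2, Nr1i3, Hnf4a and Nr3c2, background 7.19%), time over both diets 2 (Nr1i3 and Nr2f6, background 13.6%) and the interaction 2 (Thrb and Esr1, background 4.8%). Groups that did not overlap at all were found for 0 members in BD 3 against CD 3 (background 0.756%), 1 in BD 14 against CD 14 (background 0.767%), 0 in CD 14 against CD 3 (background 0.515%) and 1 in BD 14 against BD 3 (background 2.26%), Thrb in both cases, whose reference signal was above background on 0 of 6 BD 14 arrays and whose Cy5 signal alone gave −0.01 and −0.03 in these comparisons. These comparisons share samples with one another. The shares of all probes at an unadjusted p under 0.05 given here are also the background for the gene lists below. Esr1 entered the tests only because all BD 14 arrays had it above background, so its counts in the comparisons of BD 14 depend on that choice of probes; without it they are 2 for BD 14 against CD 14, 2 for BD 14 against BD 3 and 1 for the interaction. Leaving Esr1 aside for that reason, the slide as a block kept the unadjusted p under 0.05 for Nr1i3 in diet over both times and, with the same weak reference, for Thrb in BD 14 against CD 14, and for none of the others.

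Over the 30 members tested the median difference with BASE-diet was 0.09 at 3 months (17 higher, 13 lower), where it was 0.03 over all probes, and 0.20 at 14 months (21 higher, 9 lower), where it was 0.05 over all probes. The members' medians became 0.25 and 0.27 with the slide as a block, against 0.15 and 0.03 for all probes. Within slide C the median was 0.56 (all probes 0.26), and within slide A it was 0.27 (all probes 0.03). With time the members' median was −0.06 on control diet and −0.09 on BASE-diet, while all probes had 0.03 and 0.07. The block moved the members' medians to 0.05 and −0.05, and those of all probes to 0.14 and 0.003. Red cell markers were lower on BASE-diet, with a median of −0.57 over both times and 2 of 4 at an unadjusted p under 0.05 (0 called by limma, −0.80 with the slide as a block); whether this bears on the receptors was not tested. The single receptors lay between −0.51 and 0.99 for diet at 3 months and between −0.53 and 0.97 at 14 months.

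**Figure D1:**
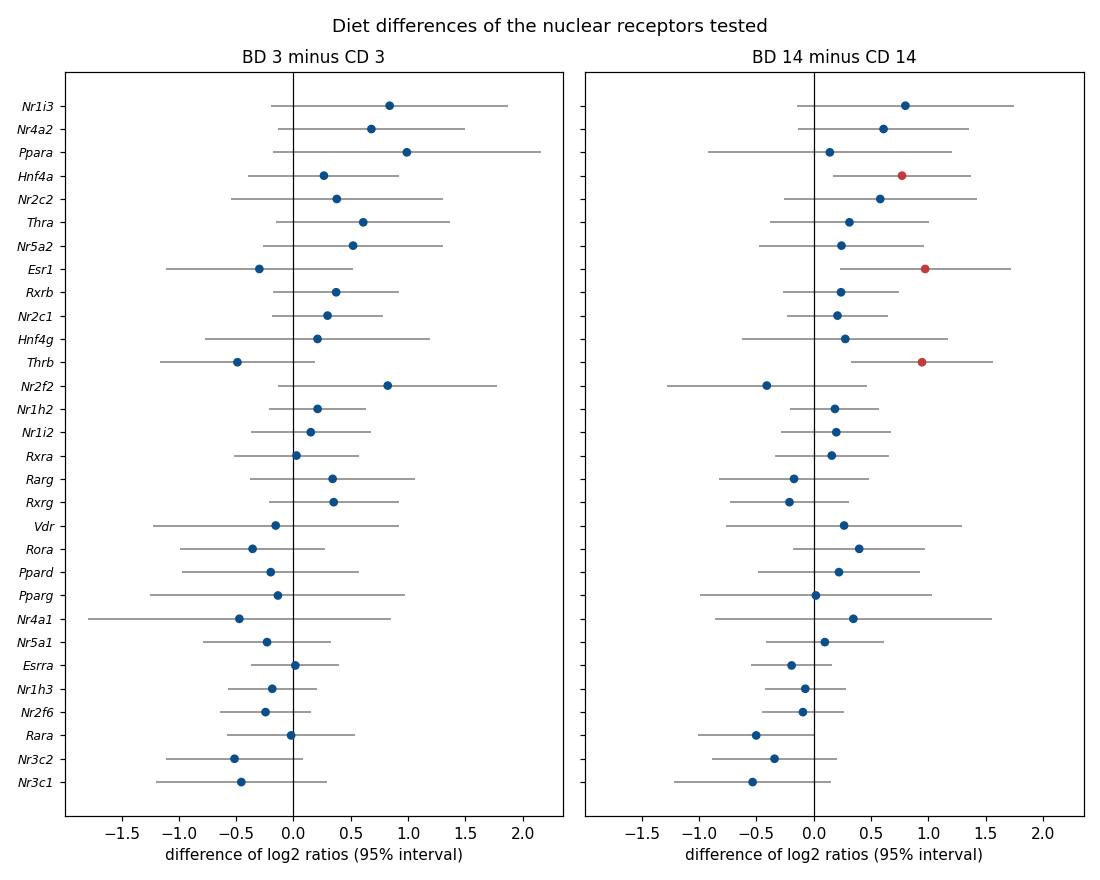
Difference of log2 ratios between BASE-diet and control rats at 3 months (left) and 14 months (right) for the 30 nuclear receptors tested, ordered by their difference over both times; points are limma estimates, lines 95% intervals, and red marks an unadjusted p under 0.05. Thrb, Esr1 and Hnf4a are marked at 14 months and no receptor at 3 months; for Thrb and Esr1 no BD 14 array had the reference above background, and Esr1 was tested only through BD 14.

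Among the receptors that sense foreign compounds and bile acids, Nr1i3 varied most between the groups. Nr1i3 is the constitutive androstane receptor, which turns on enzymes and transporters of drug and bilirubin clearance. Its log2 ratio in CD 3 was −1.23, −2.00, −0.33, −0.41 and −0.67 (rats 1 to 5), and in BD 3 it was −1.21, 0.74, −0.25, 0.20 and 0.06. In CD 14 it ran from −2.93 to −0.92 with a median of −2.45, and in BD 14 from −3.03 to −0.26 with a median of −1.25. The livers of 14 months were the lower ones on both diets and the BASE-diet livers the higher ones at both times, but all groups overlapped: BD 3 rat 1 lay among the control values, and BD 14 rat 2 had the lowest value of all. The difference was −1.18 ± 0.48 (SE) for CD 14 against CD 3 and −1.22 ± 0.48 for BD 14 against BD 3. Over both diets it was −1.20 ± 0.34, with a limma adjusted p of 0.143, the lowest reached by any member. This became −0.91 with the slide as a block, and between the single rats of each age on slide E it was −0.68. With that block none of the 3 time comparisons of Nr1i3 kept an unadjusted p under 0.05.

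For diet, Nr1i3 was higher in BASE-diet livers by 0.84 ± 0.50 at 3 months and by 0.80 ± 0.46 at 14 months, and by 0.82 ± 0.34 over both times (limma adjusted p = 0.631). Within slide C the 3-month difference was 1.00 and within slide A the 14-month difference was 1.14; with the slide as a block they were 1.16 and 1.14, and 1.15 over both times. A second Nr1i3 probe, at another place of the gene, gave 0.87 ± 0.35 for diet and −0.96 ± 0.35 for time, in the same directions. The diet by time interaction was −0.04 ± 0.68, so a difference between the times of either sign was not resolved.

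Of the Kupffer cell markers 6 of 6 were higher in CD 14 than in CD 3 with a median of 1.24, 5 of them at an unadjusted p under 0.05 and 0 called by limma, and their mean log2 ratio was −1.90 ± 0.97 for CD 3, −1.29 ± 0.81 for BD 3, −0.67 ± 0.43 for CD 14 and −0.87 ± 0.73 for BD 14. Their median was 0.37 with the slide as a block, and 0.17 on slide E. In BD 14 against BD 3 it was 0.28, which the block turned to −0.60 with 0 of 6 higher, and over both diets the block turned 0.76 to −0.27. With BASE-diet 6 of 6 of these markers were higher at 3 months (median 0.68, 0.54 with the block). At 14 months 0 of 6 were higher (−0.21, −0.73 with the block). Whether the makeup of the tissue has a part in the values of Nr1i3 was not tested.

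Nr1i2, the pregnane X receptor, which shares many target genes with Nr1i3, varied more in single livers than between the diets. In log2 it had −0.55, 0.05, −0.38, 0.38 and −0.14 in CD 3 and 0.08, 0.28, −0.37, 0.49 and −0.36 in BD 3. In CD 14 it ran from −1.12 to 0.13 (median −0.36) and in BD 14 from −0.59 to 0.39 (median −0.36). The groups overlapped, with CD 14 rats 3 and 5 below every liver of the other groups, and the diet difference over both times was 0.17 ± 0.17 (0.44 with the slide as a block).

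Of 19 target genes of these 2 receptors 16 had a probe and 15 were tested, and 0 were called by limma in any comparison. Over both diets 11 of the 15 were lower at 14 months, with a median of −0.31 against 0.06 over all probes, and 5 had an unadjusted p under 0.05, 3 lower and 2 higher. Those with the smallest p were the drug exporter Abcb1b (0.94 ± 0.22, limma adjusted p = 0.0794) and the glucuronosyltransferase Ugt2b1 (1.49 ± 0.55), both higher, and the cytochromes Cyp3a9 (−1.70 ± 0.49) and Cyp2b3 (−0.31 ± 0.11), both lower. The median was −0.38 on control diet and −0.30 on BASE-diet; with the slide as a block these were −0.57 and −0.48, and on slide E −0.34. With diet the median was 0.03 over both times (0.00 with the block), and 2 of 15 had an unadjusted p under 0.05, both higher: Por (0.64 ± 0.28), the reductase that feeds electrons to cytochromes P450, and Cyp2b2 (0.56 ± 0.25).

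The peroxisome proliferator-activated receptors sense fatty acids, and their own transcripts did not separate the diets. Ppara, the main one in hepatocytes, had log2 ratios of 0.66, −1.54, −2.81, −0.90 and 0.18 in CD 3 and of −0.26, −0.82, 0.31, 0.62 and 0.67 in BD 3. In CD 14 it ran from −1.07 to 0.37 (median −0.88) and in BD 14 from −2.00 to 0.88 (median −0.69). CD 3 rats 2 and 3 were the low ones at 3 months, both on slide D, which held no BASE-diet rat, and the groups overlapped. Ppara was higher in BD 3 than in CD 3 by 0.99 ± 0.56 (limma adjusted p = 0.78), and by 0.51 to 1.37 with an array left out. The difference was −0.82 with the slide as a block and −1.20 within slide C, so its sign turned there. With the block CD 3 is represented by rats 1 and 5 alone, which had its highest Ppara values (0.66 and 0.18). The only control on slide C was CD 3 rat 1, with the highest Ppara of CD 3 and 4.44% non-uniform spots. Over both times the difference was 0.56 ± 0.38 (0.32 to 0.76 with an array left out), and −0.15 with the block.

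Ppard is found in many tissues and Pparg mostly in fat. The log2 ratio of Ppard was −1.45, 0.40, 1.01, 1.00 and 0.65 in CD 3 and 0.61, 0.33, 0.27, 0.01 and −0.60 in BD 3, and it ran from −0.38 to 0.46 in CD 14 (median 0.02) and from −0.28 to 0.85 in BD 14 (median 0.16). That of Pparg was 0.25, −1.06, 1.38, 1.69 and 1.05 in CD 3 and −0.70, 0.71, 1.23, 0.18 and 1.22 in BD 3, and it ran from −0.38 to 1.26 in CD 14 (median 0.83) and from −0.73 to 1.99 in BD 14 (median 0.67). All groups overlapped, and CD 3 had the widest range of Ppard. The diet difference over both times was 0.01 ± 0.25 for Ppard (0.60 with the slide as a block) and −0.06 ± 0.36 for Pparg (0.02 with the block). A second Ppard probe, above background on 17 arrays, gave 0.47 ± 0.46. At 3 months that probe gave 0.79 ± 0.67, where the first gave −0.20 ± 0.37.

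Of the target genes of Ppara more were higher than lower on BASE-diet. All 16 listed genes were tested. At 14 months 15 of 16 were higher (56.3% of all probes), with a median of 0.58 against 0.05 over all probes. Of these genes 7 had an unadjusted p under 0.05 (4.6% of all probes). At 3 months 12 of 16 were higher (53.6% of all probes), with a median of 0.33 against 0.03. An unadjusted p under 0.05 was reached by 5 (7.11% of all probes). Over both times 14 were higher and the median was 0.44 against 0.05; 1 gene passed limma's adjusted threshold, Acot1, a thioesterase of acyl-CoA (2.92 ± 0.43, adjusted p = 0.0167). With the slide as a block Acot1 no longer passed. Its call also ended when CD 3 rat 3, CD 3 rat 4, BD 3 rat 2 or BD 3 rat 4 was left out. The list's median was 0.46 with the block, and 0.62 at 14 months within slide A. At 3 months the block gave 0.31 with 13 of 16 higher (all probes 0.15). Within slide C, the one slide with both diets at 3 months, it was 0.11 with 9 of 16 higher. That was below the 0.26 of all probes. The others with the smallest p were Cpt1a (1.16 ± 0.32), which admits fatty acids to mitochondria, Cyp4a1 (0.93 ± 0.27), which hydroxylates fatty acids, and Slc25a20 (0.54 ± 0.16), the carnitine carrier of the inner membrane. With time the list's median was −0.14 on control diet and 0.01 on BASE-diet, with 0 of 16 called by limma and 0 at an unadjusted p under 0.05. Of the fat cell markers only 2 of 5 could be tested: their mean was −0.34 ± 0.82 in CD 3 and 0.37 ± 0.42 in BD 3, −0.31 ± 0.50 in CD 14 and 0.46 ± 0.57 in BD 14. Cidec, a lipid droplet protein, was higher by 1.16 ± 0.21. The median of the 2 was 0.74 over both times and 0.22 with the slide as a block. At 3 months it was 0.71, but −0.26 with the block and −0.56 within slide C. The only control on slide C, CD 3 rat 1, had a fat cell mean of 1.09, and the other CD 3 rats had −1.03 to −0.52. At 14 months the median was 0.77, and it was 0.70 within slide A, which the block gives by construction. Whether the fat cell markers have a part in the list's shift was not tested.

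The retinoid receptors bind forms of vitamin A. Rxra, the main heterodimer partner in liver, had log2 ratios of −0.87, 0.20, −0.05, −1.50 and −0.47 in CD 3 and of 0.01, −0.51, −0.39, −0.84 and −0.83 in BD 3; it ran from −1.14 to −0.46 in CD 14 (median −1.02) and from −1.04 to −0.29 in BD 14 (median −0.82). Most livers were below the reference, with overlap of all groups, and the diet difference over both times was 0.09 ± 0.18 (0.23 with the slide as a block). In the Cy5 signal alone Rxra was the 1 receptor called, among the 4 groups and in BD 3 against CD 3. Its diet difference over both times was 0.45 in that signal, and it was not called in that comparison. Rxrb was −0.28, 0.44, 0.28, −0.53 and −1.13 in CD 3 and 0.43, 0.33, −0.08, 0.12 and −0.17 in BD 3, from −1.11 to 0.09 in CD 14 (median −0.22) and from −0.46 to 0.03 in BD 14 (median −0.06). The BASE-diet values of Rxrb lay in a narrower band than the control values at both times, and the diet difference was 0.31 ± 0.18 (0.34 with the block).

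Rara, a receptor of all-trans retinoic acid, was −0.15, 0.38, 0.77, 0.34 and 0.24 in CD 3 and −0.25, 0.12, 1.18, 0.20 and 0.23 in BD 3, from 0.07 to 1.05 in CD 14 (median 0.44) and from −0.63 to 0.58 in BD 14 (median 0.07). The 2 diets were alike at 3 months, and at 14 months BD 14 reached lower. The diet difference was −0.26 ± 0.18 over both times (−0.29 with the slide as a block). Rxrg and Rarg, which are usually sparse in hepatocytes, differed with diet by 0.07 ± 0.18 and 0.09 ± 0.23. Of 10 retinoic acid receptor targets 7 were tested and limma called 0. Over both times 5 of the 7 were higher on BASE-diet, 0 had an unadjusted p under 0.05, and the median of 0.23 became 0.02 with the slide as a block. At 14 months all 7 were higher, with a median of 0.17, and 1 of them, the retinoic acid hydroxylase Cyp26a1, had an unadjusted p under 0.05 (1.35 ± 0.55, above background on 16 arrays). Within slide A that median was 0.31 with 6 of 7 higher.

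The oxysterol receptors regulate cholesterol export and fat synthesis. Nr1h3 (LXRalpha) was 0.02, 0.20, 0.23, 0.00 and 0.16 in CD 3 and −0.07, 0.00, 0.15, −0.29 and −0.10 in BD 3, from −0.12 to 0.39 in CD 14 (median 0.02) and from −0.85 to 0.28 in BD 14 (median 0.05). Nr1h2 (LXRbeta) was −0.51, 0.56, −0.09, −0.78 and −0.44 in CD 3 and 0.20, 0.15, −0.14, −0.28 and −0.14 in BD 3, from −0.42 to 0.10 in CD 14 (median −0.25) and from −0.16 to 0.26 in BD 14 (median −0.04). The lowest values were those of BD 14 rat 2 for Nr1h3 and of CD 3 rat 4 for Nr1h2, and the groups overlapped. The diet difference was −0.13 ± 0.13 for Nr1h3 (0.00 with the slide as a block) and 0.20 ± 0.14 for Nr1h2 (0.25 with the block).

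Of the targets of these 2 receptors 9 of 10 were tested and 0 were called by limma. With time on control diet 3 had an unadjusted p under 0.05: the cholesterol exporter Abcg1 (1.58 ± 0.40) and the desaturase Scd1 (2.49 ± 1.13) were higher, and Abcg5 (−1.54 ± 0.54), which carries sterols into bile, was lower. The list's median there was 0.63 against 0.03 over all probes, 0.47 with the slide as a block and 0.61 on slide E. With time on BASE-diet 0 of 9 had an unadjusted p under 0.05, and the median of 0.25 turned to −0.30 with the block; over both diets 0.45 became 0.08. The Kupffer cell markers had medians of 1.24 for control diet (0.37 with the block) and 0.28 for BASE-diet (−0.60 with the block). Over both diets they had 0.76 (−0.27 with the block). Whether these markers have a part in this list's shift was not tested. Diet over both times gave a median of 0.06 (0.06 with the block) with 0 of 9 at an unadjusted p under 0.05. Vdr, the vitamin D receptor, is low in hepatocytes; it was above background on 19 arrays and differed with diet by 0.06 ± 0.36, and of 6 vitamin D targets 4 were tested with 0 called and 1, Trpv6, at an unadjusted p under 0.05 for time (−0.64 ± 0.22); the median of the 4 was 0.43 for time, and −0.18 with the slide as a block.

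The thyroid hormone receptors set the rate of lipid synthesis and breakdown in liver, Thrb being the main form there. Thrb was 0.90, 1.99, 0.33, −0.19 and 0.50 in CD 3 and 0.75, −0.21, 0.50, −0.27 and 0.30 in BD 3. In CD 14 it ran from −0.38 to 0.82 (median 0.38) and in BD 14 from 0.92 to 1.72 (median 1.11). All 6 BD 14 livers lay above all 6 CD 14 and all 5 BD 3 livers, while CD 3 rat 2 was the highest of all 22. The signal was weak: Thrb was above background in 3 of 5 CD 3, 5 of 5 BD 3, 4 of 6 CD 14 and 6 of 6 BD 14 livers, and in the reference on 1 of 5, 3 of 5, 4 of 6 and 0 of 6 arrays of these groups. Every BD 14 ratio of Thrb is therefore a ratio to a reference signal that was not well above background.

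The difference of Thrb was 0.95 ± 0.30 for BD 14 against CD 14 (limma adjusted p = 0.807) and 1.01 ± 0.31 for BD 14 against BD 3 (adjusted p = 0.402). At 3 months it was −0.49 ± 0.33, and the interaction was 1.43 ± 0.44 (adjusted p = 0.985). Within slide A, 6 BD 14 and 2 CD 14 rats, the diet difference was 1.09, but those 2 CD 14 rats had Thrb above background in neither channel. The fit with a slide term gives the same 1.09 by construction, and it gave 1.29 for time on BASE-diet. The Cy5 signal alone, without dividing by the reference, gave −0.01, −0.03 and −0.06 for diet at 14 months, time on BASE-diet and the interaction, so the difference was there in the ratio and not in the rat channel by itself. The cause was not tested.

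Thra, above background on 21 arrays, was higher on BASE-diet by 0.46 ± 0.25 over both times. The lowest value was that of CD 3 rat 4 (−2.26), where Thra was not above background. Of 8 thyroid hormone targets 7 were tested and limma called 0. All 7 were higher on BASE-diet over both times, with a median of 0.16, and 2 had an unadjusted p under 0.05: Gpd2 (1.22 ± 0.38), the mitochondrial glycerol phosphate dehydrogenase, and Klf9 (0.66 ± 0.20), which is also in the glucocorticoid list. With the slide as a block 6 of 7 were higher and the median was 0.26. The block turned the 3-month median from 0.16 to −0.18, with 3 of 7 higher. Within slide C that median was 0.40 with 5 of 7 higher, where all probes had 0.26. At 14 months the block gave 0.86, where it was 0.37 without.

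Of the steroid receptors Esr1, the estrogen receptor alpha, followed a course much like Thrb. It was 0.66, 1.52, −0.11, −0.74 and −0.66 in CD 3 and 0.18, −0.65, 0.28, 0.41 and −1.05 in BD 3, from −0.95 to 0.42 in CD 14 (median −0.30) and from 0.13 to 1.40 in BD 14 (median 0.60). All BD 14 livers were above 0, and 1 CD 14 liver, rat 2, reached into their range. Esr1 was above background in 2 of 5, 2 of 5, 3 of 6 and 6 of 6 livers of CD 3, BD 3, CD 14 and BD 14, and in the reference on 1 of 5, 2 of 5, 2 of 6 and 0 of 6. The BD 14 ratios thus have no reference signal well above background, and Esr1 was tested only because BD 14 met the limit, so its differences in comparisons with BD 14 are not independent of how it was picked. The difference was 0.97 ± 0.36 for BD 14 against CD 14 (limma adjusted p = 0.931), 0.85 ± 0.38 for BD 14 against BD 3 and 1.27 ± 0.53 for the interaction. Within slide A the diet difference was 1.17, with the 2 CD 14 rats there above background in neither channel; with the slide as a block the 3 values were 1.17, 1.43 and 1.91. With normexp background and loess they were only 0.11, 0.09 and 0.14. Esr2 and Pgr were not tested.

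Nr3c2, the mineralocorticoid receptor, was 1.21, 0.07, 1.06, 1.64 and 0.49 in CD 3 and 0.05, 0.43, 1.39, 0.07 and −0.04 in BD 3, from 0.28 to 0.77 in CD 14 (median 0.53) and from −0.14 to 0.72 in BD 14 (median 0.04). BASE-diet values were lower in the middle but overlapped with the controls at both times. The diet difference was −0.43 ± 0.19 (limma adjusted p = 0.675), and −0.48 with the slide as a block. A second probe, above background on 8 arrays and so not among those tested, gave −0.17. Nr3c1, the glucocorticoid receptor, differed in the same direction by −0.49 ± 0.24, and its second probe, named after its values were seen, was lower in BD 3 than in CD 3 by −0.88 ± 0.31 (limma adjusted p = 0.518) where the first gave −0.46 ± 0.36, while at 14 months the second gave 0.06 ± 0.28 and the first −0.53 ± 0.33.

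Of the glucocorticoid receptor targets all 13 were tested, with 0 called by limma; over both times 10 were higher, the median was 0.65 against 0.05 over all probes, and 4 had an unadjusted p under 0.05, all higher. These were Klf9, the metallothioneins Mt1a (1.24 ± 0.43) and Mt2A (1.42 ± 0.65), and Pck1 (0.98 ± 0.39), an enzyme of glucose synthesis. With the slide as a block the median was 0.65; it was 0.28 within slide C at 3 months (all probes 0.26) and 0.19 within slide A at 14 months (all probes 0.03).

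The estrogen-related receptors are orphans that govern mitochondrial genes. Esrra was above background on all arrays and differed with diet by −0.09 ± 0.13, while Esrrb and Esrrg were not tested. Of 9 mitochondrial targets 8 were tested and 0 called by limma; over both times 7 were higher on BASE-diet with a median of 0.17 (0.25 with the slide as a block), and 1, Acadm, a dehydrogenase of medium-chain fatty acids (0.44 ± 0.19), had an unadjusted p under 0.05.

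Hnf4a, an orphan receptor that holds hepatocytes in their differentiated state, was −0.60, 0.96, 0.43, −1.11 and −0.25 in CD 3 and 0.54, 0.38, 0.28, −0.44 and −0.01 in BD 3. It ran from −0.97 to 0.32 in CD 14 (median −0.22) and from 0.11 to 0.68 in BD 14 (median 0.46). All BD 14 livers were above the reference and 1 CD 14 liver, rat 5, was within their range. The difference was 0.77 ± 0.29 for BD 14 against CD 14 (limma adjusted p = 0.952) and 0.52 ± 0.21 for diet over both times (adjusted p = 0.641). Within slide A, where CD 14 rats 4 and 5 were scanned beside the BD 14 rats, the 14-month difference was 0.37, and by construction the same with the slide as a block. Over both times the block gave 0.49. Hnf4g, above background on 20 arrays, differed by 0.24 ± 0.32. Of 12 hepatocyte genes under Hnf4a, all tested, 0 were called by limma for diet at 14 months and 0 had an unadjusted p under 0.05, with 5 higher and 7 lower and a median of −0.02 (−0.07 within slide A).

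Nr2f6, an orphan receptor of the COUP family, was −0.16, −0.24, 0.29, 0.36 and −0.28 in CD 3 and −0.22, 0.25, −0.21, −0.61 and −0.47 in BD 3, from −0.57 to −0.19 in CD 14 (median −0.45) and from −0.92 to −0.27 in BD 14 (median −0.43). CD 3 rats 3 and 4, both on slide D, and BD 3 rat 2 were the high ones, and every 14-month liver was below the reference. The difference was −0.41 ± 0.18 for CD 14 against CD 3 (limma adjusted p = 0.456) and −0.33 ± 0.13 for time over both diets (adjusted p = 0.27). With the slide as a block these were 0.06 and −0.09, on slide E 0.01, and a second probe gave 0.06 and 0.10. Nr2f2 of the same family differed with diet by 0.21 ± 0.31 over both times, made up of 0.82 ± 0.46 at 3 months and −0.41 ± 0.42 at 14 months (named after the values were seen). The testicular receptors Nr2c1 and Nr2c2 differed with diet by 0.25 ± 0.16 and 0.48 ± 0.30, the clock-linked Rora by 0.02 ± 0.21, and Nr5a2, a regulator of bile acid synthesis, and its relative Nr5a1 by 0.38 ± 0.26 and −0.07 ± 0.18; none of these 5 had an unadjusted p under 0.05. For Nr5a2 the lowest value was that of CD 3 rat 4 (−2.16). Nr2f1 and Nr6a1 were not tested.

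The Nr4a receptors are induced within minutes of a stimulus. Nr4a2 was −0.70, −0.71, −0.98, −0.79 and −0.33 in CD 3 and 0.18, −0.50, 1.04, 0.08 and −0.91 in BD 3, from −1.50 to 0.26 in CD 14 (median −0.81) and from −1.19 to 0.70 in BD 14 (median −0.09). Control livers were mostly well below the reference and BASE-diet livers around it, with overlap at both times. The diet difference was 0.64 ± 0.27 (limma adjusted p = 0.63), 0.81 with the slide as a block, and 0.70 ± 0.28 for a second probe. Nr4a1 differed with diet by −0.06 ± 0.43, and Nr4a3 was not tested. Of 15 immediate early genes 11 were tested, with 0 called by limma and 0 at an unadjusted p under 0.05 for diet; 10 of them were higher on BASE-diet, with a median of 0.14 (0.25 with the slide as a block).

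**Figure D2:**
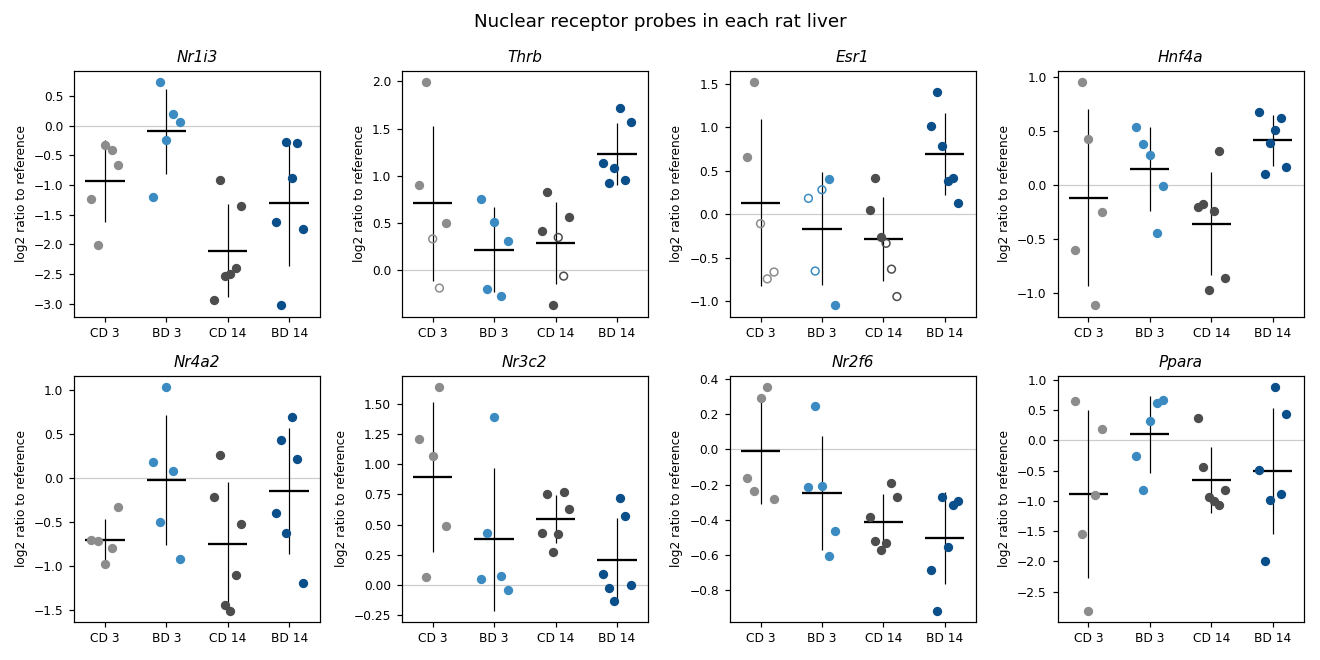
Log2 ratio to the common reference of 8 nuclear receptor probes in each liver, by diet and months; points are rats, open where the probe was not well above background in Cy5, bars are means with SD. The 6 BD 14 livers lie above all 6 CD 14 livers for Thrb, but the reference was above background on 0 of 6 BD 14 arrays for Thrb and for Esr1; Nr1i3 is lower in most 14-month livers.

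Nuclear receptors act with coactivators and corepressors. Of 13 coactivators 11 were tested and 0 called by limma. Diet over both times gave 3 higher and 8 lower, with a median of −0.07. Only 1 of the 11, the methyltransferase Carm1 (0.30 ± 0.13), had an unadjusted p under 0.05, as had 7.19% of all probes. With the slide as a block 8 were higher and the median was 0.15. Of 9 corepressors 8 were tested and 0 called; 6 were higher, the median was 0.14 (0.32 with the block) and 0 had an unadjusted p under 0.05. Of 11 further nuclear receptors outside the 38 genes 6 were tested and 0 called; their median was 0.17 for diet (0.07 with the block) and 0.38 for time (0.53 with the block). Among these Nr0b2 (SHP), which restrains other receptors and has no DNA-binding domain, was higher in BD 14 than in CD 14 by 1.05 ± 0.43. With time over both diets the clock receptors Nr1d1 (0.79 ± 0.23) and Nr1d2 (0.91 ± 0.28) were higher and Nr1h5 was lower (−0.60 ± 0.24), all at an unadjusted p under 0.05. The hour at which livers were taken was not used here.

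The probes of Thrb, Esr1 and Hnf4a, which had an unadjusted p under 0.05 for diet at 14 months, and of Nr1i3, which had the lowest adjusted p, are given here 5′ to 3′ so that the part of each transcript that was read can be found; coordinates are those of the array files on rat build rn4. Each has 60 bases and at least 1 reading frame without a stop codon. The Nr1i3 probes lie at chr13:87108479-87108538 and chr13:87107518-87107577 on the plus strand, Thrb at chr15:9282955-9283014 on the minus strand, Esr1 at chr1:35660062-35660121 and Hnf4a at chr3:154482715-154482774, both on the plus strand.
Nr1i3, first probe: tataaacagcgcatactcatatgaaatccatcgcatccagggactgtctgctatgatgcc
Nr1i3, second probe: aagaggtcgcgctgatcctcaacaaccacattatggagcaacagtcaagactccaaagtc
Thrb: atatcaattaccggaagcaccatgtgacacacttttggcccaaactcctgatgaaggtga
Esr1: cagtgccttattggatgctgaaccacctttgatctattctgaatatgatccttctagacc
Hnf4a: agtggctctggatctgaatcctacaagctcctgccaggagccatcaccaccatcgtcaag

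Many nuclear receptors recognise the core motif AGGTCA in DNA. It was searched on both strands (AGGTCA or TGACCT) in the RefSeq promoter windows of build GRCr8, which lie around each gene's start, and 33 of the 38 genes had a window. It was found in 2 of the 33 (6.06%), Nr5a2 and Rarg, and in 16.2% of all 33469 windows. For each of the 33 genes only the first listed window was counted, while the share over all counts every window. A match is a string of letters and not a binding site, and these windows leave out the rest of each gene's control regions.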

How the data were processed

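Liver RNA of 22 rats, 1 rat per array, was hybridised to Agilent rat arrays with a common reference. On every array the labels put the rat in Cy5 and the reference in Cy3, while a sentence of the methods names Cy3 for control and Cy5 for BASE-diet rats; the labels were followed, there were no dye swaps, and the lowest correlation between the log2 ratios of 2 arrays was −0.0796. The authors subtracted background and applied Lowess normalization in Feature Extraction (10.7.3.1 per the labels, 10.10.1.1 per the file headers), and the deposited array files hold log10 ratios and signals as intensity. The authors' series table holds log2 values, less a constant for each probe, of the entries they found significant only; columns 1 to 4 of its CD 3 values matched the arrays of rats 2 to 5 and column 5 matched none (highest r 0.626), so CD 3 rat 1 is not found in it.

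The log10 ratios were turned into log2. Of 62976 spots 58717 were not controls; spots with the non-uniform flag were left out and spots of the same probe averaged, which gave 30367 probes with gene names and rn4 positions from the files. In 2 BD 3 files some spots have other gene names, 0 of them of the receptors. A probe counted as above background where a share of 0.5 or more of its spots had the flag for signal well over background in Cy5, and it was tested if this held on all arrays of at least 1 group (19434 probes). Limma (3.58.1, R 4.3.3) fitted the 4 groups, with Benjamini-Hochberg adjustment over all probes tested in each comparison and a threshold of 0.05. Values are means of log2 ratios, errors of differences are SE and intervals 95%. Signal limits precision: the share of spots above background per array was 52.4% to 93.6% in Cy5 and 52.4% to 83.4% in Cy3. Residual SDs had a median of 0.529 over probes.

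Receptors named are those with an unadjusted p under 0.05 in the F test or any comparison, and Ppara, Ppard, Pparg, Rxra, Rxrb, Rara, Rarb, Nr1h2, Nr1h3, Nr1i2, Nr1i3 and Hnf4a whatever their values; of lists, genes past the adjusted threshold or else with an unadjusted p under 0.05 in the comparison described, at most 4 by p. The other receptors tested are given by their diet difference over both times, so that all are accounted for. The members and the lists (targets of PPARalpha, LXR, PXR and CAR, of the retinoic acid, glucocorticoid, thyroid hormone, vitamin D and estrogen-related receptors and of Hnf4a, immediate early genes, coactivators, corepressors, other nuclear receptors, and cell markers) were chosen with earlier results of these data known. Alternatives covered background and normalization (normexp, offset 50), Cy5 alone, centring, filters, non-uniform spots, slide, array weights, variance trend, rat number, samples fitted, the F test of the methods with Tukey's test, other probes, the authors' values and leaving out each array. The slide analyses have few rats: a lone array of a group was assumed to vary like the others. The fits were tested on simulated data. Promoter windows came from RefSeq (GRCr8). Tables and figures were made in Python 3.11.15 with pandas 2.3.3 and matplotlib 3.10.9.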

Additional observations from a re-analysis of the deposited data

Results flagged for a closer look

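A single liver stood apart from the rest of its group, by the gap to its neighbour relative to the range of the group (Dixon's test), in 14 of 108 groups tested; chance flags about 1 in 20 groups. Among the named receptors it was 4 of 64 groups: Ppard in CD 3 rat 1 (−1.45), Rxrb in BD 14 rat 1 (−0.46), and Nr1h3 in CD 14 rat 6 (0.39) and BD 14 rat 2 (−0.85). For the mean of cell markers it was the endothelial markers in CD 14 rat 6 (0.54), the bile duct markers in CD 3 rat 1 (0.38) and the fat cell markers in CD 3 rat 1 (1.09). The muscle markers had a low liver in BD 3 rat 3 (−4.34), CD 14 rat 5 (−4.17) and BD 14 rat 4 (−3.65), and the pancreas markers in CD 3 rat 3 (0.17), BD 3 rat 5 (−1.88), CD 14 rat 3 (−1.95) and BD 14 rat 6 (−2.45); of these lists 4 and 2 genes could be tested.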

How the results depend on the processing

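Apart from single arrays left out, 356 values of named differences kept their sign and their side of the threshold, 18 turned and 6 came to pass it; with an array left out 600 kept both and 16 turned. As none had passed the adjusted threshold, keeping its side says little. Of the differences with an unadjusted p under 0.05, that p was kept in from 7 of 13 alternatives (Nr3c2, diet over both times) to 13 of 14 (Nr1i3, time over both diets). Alternatives that gave no p are left out of these shares. The count of receptors called was 0 in every comparison whichever array was left out and under most alternatives. Cy5 alone called 1 among the 4 groups and 1 in BD 3 against CD 3, Rxra in both. The authors' values, fitted only over entries they found significant, called 3 among the 4 groups, 1 in BD 14 against CD 14, 1 in CD 14 against CD 3, 3 in BD 14 against BD 3, 2 for time over both diets and 1 for the interaction: Nr1i3, Thrb and Esrrb, the last above background on 4 of 22 arrays and not among the 30 tested. Their CD 3 columns lack rat 1 and hold a column that matches no array. By them Thrb differed by 0.95, 1.01 and 1.42 (BD 14 against CD 14, BD 14 against BD 3, interaction) and Nr1i3 by −1.27, −1.22 and −1.24 (CD 14 against CD 3, BD 14 against BD 3, time over both diets). Keeping non-uniform spots leaves the detection count as it is by construction, so leaving them out was added after seeing the data. The difference of Nr1i3 in diet over both times ran from 0.61, without the 4 arrays with most spots above background, to 1.15, with the slide as a block. No slide held BD 14 and BD 3 rats together, so that comparison has no value within a slide.

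Signs turned as follows; the cause was not tested. Cy5 alone gave Thrb −0.012, −0.032 and −0.064 (same order) and Pparg 0.071 for diet over both times; normexp gave Pparg 0.015. The slide as a block gave Nr2f6 0.057 for CD 14 against CD 3, Ppara −0.82 for BD 3 against CD 3 and −0.15 over both times, Pparg 0.018 and Nr1h3 0.0035. Within a slide Nr2f6 had 0.0083 (E) and Ppara −1.20 (C). The second probe of Nr2f6 gave 0.062 for CD 14 against CD 3 and 0.098 over both diets. Ppard over both times had −0.041 with arrays centred on the median, −0.10 with array weights and, both added after seeing the data, −0.23 without the 2 arrays with most non-uniform spots and −0.089 without the 4 with most spots above background. Leaving out each array gave −0.21 to 0.10 for Ppard, −0.27 to 0.10 for Pparg and −0.028 to 0.18 for Rxra. Other diet differences kept their sign but moved in size. For Ppara the range was 0.51 to 1.37 at 3 months and 0.32 to 0.76 over both times. Over both times Nr1h3 had −0.16 to −0.047, Nr1i2 0.10 to 0.24, Rxrb 0.19 to 0.39 and Nr1h2 0.13 to 0.30.

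Lists were added to the alternatives after seeing the data. PPARalpha targets called at 14 months numbered 1 with array weights and 0 to 1 with an array left out; over both times 0 with the slide as a block and 0 to 1 with an array left out. LXR targets for CD 14 against CD 3 numbered 0 to 1 with an array left out. PXR and CAR targets for BD 14 against BD 3 numbered 1 with Cy5 alone, 1 with array weights and 1 with only the groups compared; for time over both diets 2 with Cy5 alone, 1 with array weights, 1 without the 2 arrays with most non-uniform spots and 0 to 1 with an array left out.

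The replicate block used the rat number, which the groups share only as a number: computed on differences from the group mean of each probe, 6 of 31 same-numbered pairs had r above 0.1, r ran from −0.263 to 0.286, and 5 of 22 arrays correlated best with one of their own number. With this block 0 receptors were called in each comparison, and Nr1i3 for time over both diets was −1.23. Weak signal limits Thrb and Esr1, which were above background on 18 and 13 of 22 arrays.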

Other observations

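The other cell markers of the tissue gave these values, with 0 genes called by limma in each list. For diet over both times the median difference was 0.21 for hepatocyte markers, 0.23 for Kupffer cells, 0.13 for stellate cells, −0.08 for endothelial cells, 0.13 for bile duct cells, 0.07 for lymphocytes, −0.09 for muscle and −0.17 for pancreas, and at an unadjusted p under 0.05 only 1 gene stood among them, of the stellate list. For time over both diets the medians were 0.18, 0.76, 0.03, 0.13, 0.69, 0.35, −0.22 and −0.16 in that order, with 1, 5, 1, 2, 1, 1, 0 and 0 genes at an unadjusted p under 0.05; red cell and fat cell markers had 0.47 and 0.06, with 0 genes each. With the slide as a block the medians for diet were 0.23, −0.11, −0.12, 0.04, 0.09, 0.10, 0.06 and −0.21 in the same order, and for time 0.24, −0.27, 0.09, 0.01, 0.44, −0.11, 1.24 and −0.14, with 0.28 for red cells and 0.01 for fat cells, so the signs turned for Kupffer cells in both, for muscle in both, for stellate and endothelial cells with diet and for lymphocytes with time.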
